A study of Mus musculus with 12 samples.

Results

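RNA was sequenced from naive CD4+ T cells of the mouse, activated in vitro through CD3 and CD28 by antibodies, 3 libraries to a group. The groups were Keap1 knockout (KKO) cells after 48 h, wild-type (WT) cells after 48 h, KKO cells after 24 h and WT cells after 24 h. All groups share the activation, and the labels do not state whether cytokines were added to the culture. The genes described are 10 of the type 2 helper T cell (Th2) program: the cytokine genes Il4, Il5, Il13, Il9, Il3 and Il24, the transcription factor gene Gata3, the receptor genes Ccr4 and Il1rl1, and Ecm1. They were found by their symbols among 32698 gene rows of the count table, and all 10 were among the 13196 genes that passed the filter on low counts. The labels do not give the promoter or Cre that made the knockout, the exons removed, the strain, age or sex of the mice, or whether the 3 libraries in a group stem from different mice or cultures. The p-values below therefore measure the spread between these libraries, which may be partly technical.

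Th2 cells are the branch of CD4+ T cells that drives responses to worms and allergens. Signals from the T-cell receptor and from interleukin 4, through STAT6, raise GATA3, which opens and drives a gene cluster that holds the genes of interleukins 4, 5 and 13. In freshly activated naive T cells these cytokine genes are normally transcribed at a low level, and high output needs days of polarized culture.

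Library totals were 17786532 to 32607684 expected counts, the fractional counts per gene that RSEM estimates. Levels are given as CPM, counts per M (mega) of the scaled library total. Keap1, the gene of the protein that hands the transcription factor NRF2 to the proteasome, averaged 21.1 ± 1.21 CPM in KKO and 126 ± 5.16 CPM in WT at 48 h, and 16.6 ± 0.907 CPM in KKO and 107 ± 1.48 CPM in WT at 24 h (SD, n = 3 each). The T-cell markers Cd4, Cd3e and Lck stood at 222 to 538 CPM as means of the 4 groups. Of 8 CD4 T cell markers, 0 were called between the genotypes at either time, where 24.3% of all tested genes were called at 48 h and 2.33% at 24 h. At 48 h 3 of the 8 were higher without KKO replicate 2 and 1 without WT replicate 3 of that time. At 24 h 2 were lower without KKO replicate 2 of 48 h, with DESeq2 or in a fit of the 6 libraries of 24 h alone. Without WT replicate 1 of 24 h, 1 was lower at 24 h. Of the libraries, 2 held both the female-specific Xist and Y-linked transcripts above 10 CPM: the third KKO library at 48 h and the first KKO library at 24 h. In each group the other libraries held one kind or the other, so counts of calls are also given without those 2, named the mixed libraries. In bulk RNA, more cells that express a gene and more RNA per cell cannot be told apart.

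After 48 h, 6 of the 10 genes were higher in KKO and 0 lower: Il5, Il24, Ecm1, Il13, Ccr4 and Gata3. Calls are those of edgeR's quasi-likelihood test with a Benjamini-Hochberg adjusted p below 0.05, the adjustment running over every tested gene. The same test called 24.3% of all tested genes, 12.4% as higher and 11.9% as lower. Il4, Il9, Il3 and Il1rl1 were not called. After 24 h, 5 of the 10 were higher and 0 lower: Il24, Il9, Il3, Ccr4 and Gata3. Among all tested genes the share called was 2.33%, with 1.89% higher and 0.432% lower. The median log2 fold change, KKO over WT, was 0.91 over the 10 genes at 48 h and 1.02 at 24 h, against -0.004 over all tested genes at each time. Without the 2 mixed libraries, 6 were called at 48 h and 4 at 24 h, Il24 being the one lost. In that fit 1386 of 13391 tested genes were called at 48 h and 107 at 24 h, against 3209 and 307 of 13196 in the main fit. On leaving out each library, calls among all tested genes ran from 1405 to 5362 at 48 h and from 132 to 505 at 24 h. The lowest and highest at 48 h were without KKO replicates 1 and 2 of that time. Counts below from fits without a library stand beside these totals.

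**Figure D1:**
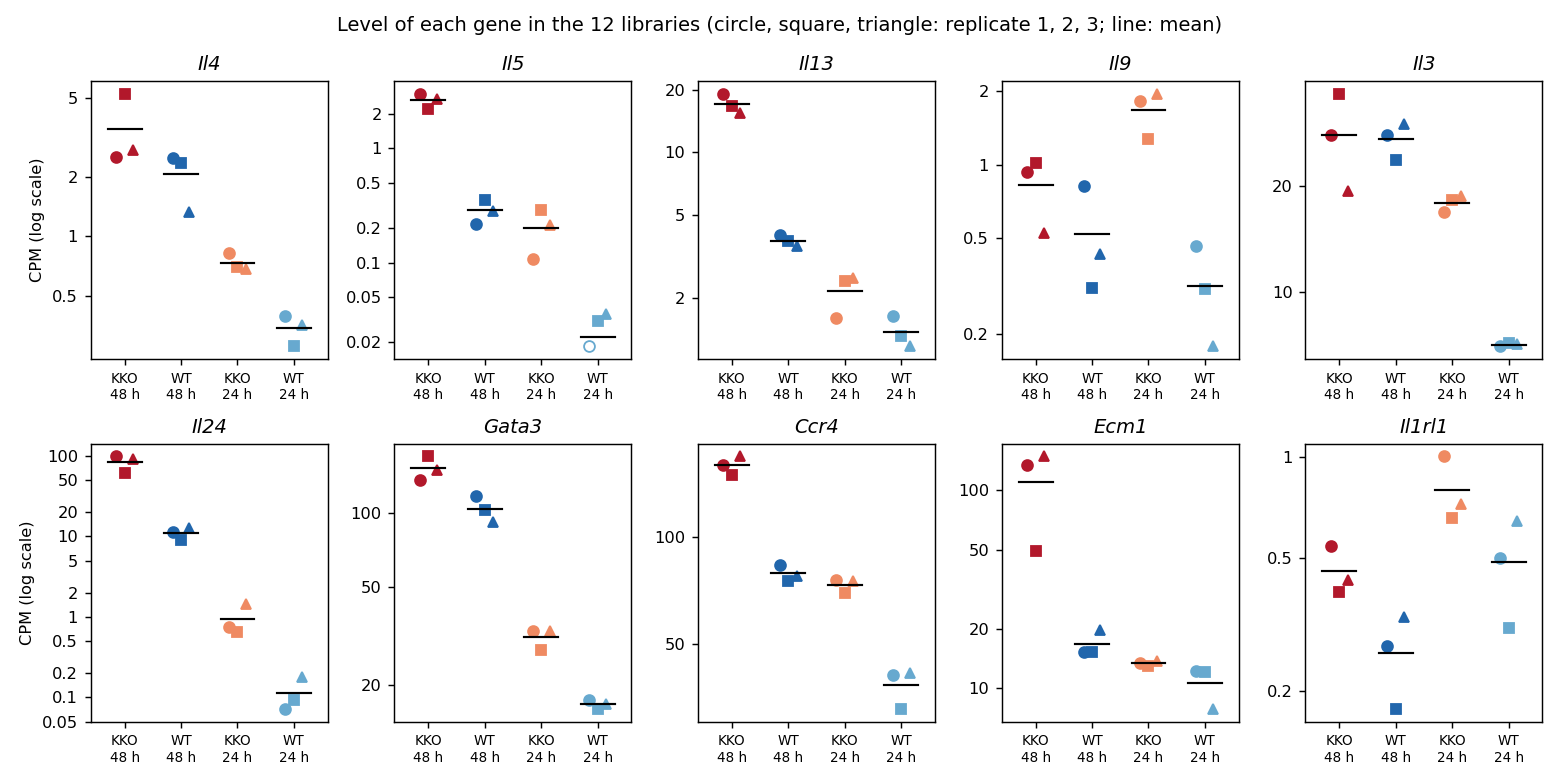
CPM on log axes in the 12 libraries, a panel per gene, with KKO left of WT at 48 h and then at 24 h. Points are libraries, the line is the group mean, and the open circle of Il5 marks WT replicate 1 at 24 h, which had 0 counts. Every KKO library stood above every WT library of its time in 8 panels at 48 h and in 9 at 24 h.

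Taken library by library, all KKO values lay above all WT values for 8 of the 10 genes at 48 h, which held for 17.1% of all tested genes, and for 9 of the 10 at 24 h, which held for 9.91%. The exceptions were Il9 and Il3 at 48 h and Il13 at 24 h. Of the cytokine genes, Il4, Il13, Il5 and Il3 lie in a stretch of 664.3 kb on chromosome 11. Il4 occupies 53602982 to 53618669 on the minus strand, Il13 occupies 53631324 to 53634702 on the minus strand, Il5 occupies 53720794 to 53725106 on the plus strand and Il3 occupies 54265303 to 54267277 on the minus strand (GENCODE M21, build GRCm38). Their promoters are shown because these neighbours differed among themselves in how they responded. Each line gives the 250 bases before the RefSeq start of the gene on build GRCm38.p6, 5′ to 3′ on the gene's strand. Capitals mark the GATA motif, the letters AGATAA, also with T in place of the first A or G in place of the last, on either strand.
Il4, chr11:53618666-53618915, minus strand: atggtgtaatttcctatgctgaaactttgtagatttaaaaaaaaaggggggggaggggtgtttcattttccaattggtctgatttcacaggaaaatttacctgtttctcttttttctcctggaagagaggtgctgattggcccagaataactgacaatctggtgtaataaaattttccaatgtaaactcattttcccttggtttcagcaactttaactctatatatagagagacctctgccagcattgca
Il13, chr11:53634703-53634952, minus strand: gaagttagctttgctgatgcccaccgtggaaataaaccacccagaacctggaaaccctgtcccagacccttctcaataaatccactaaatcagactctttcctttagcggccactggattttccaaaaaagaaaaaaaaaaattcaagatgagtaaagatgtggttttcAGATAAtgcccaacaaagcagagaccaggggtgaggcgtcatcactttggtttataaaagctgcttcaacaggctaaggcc
Il5, chr11:53720544-53720793, plus strand: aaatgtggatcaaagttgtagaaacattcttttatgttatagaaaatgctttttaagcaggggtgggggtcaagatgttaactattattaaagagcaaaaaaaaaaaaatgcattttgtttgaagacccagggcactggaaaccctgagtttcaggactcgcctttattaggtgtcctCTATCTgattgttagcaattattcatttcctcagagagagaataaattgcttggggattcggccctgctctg
Il3, chr11:54267280-54267529, minus strand: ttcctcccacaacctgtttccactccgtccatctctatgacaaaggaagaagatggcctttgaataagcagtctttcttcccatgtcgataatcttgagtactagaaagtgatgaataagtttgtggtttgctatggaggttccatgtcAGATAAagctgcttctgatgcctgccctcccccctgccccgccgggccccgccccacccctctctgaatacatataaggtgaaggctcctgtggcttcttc

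The GATA motif stood at 81 to 76 bases before the start of Il13, at 72 to 67 before Il5 and at 101 to 96 before Il3, and these letters are not in the window of Il4. Over the 9 of the 10 genes with a promoter in the RefSeq table, 5 held it (Il5, Il13, Il3, Ecm1 and Il1rl1), as did 26.5% of 32851 promoters of the same length. The core GGAAA of NFAT, the factor of calcium signalling in T cells, was in 9 of 9, against 55.6% of all. The AP-1 motif TGANTCA was in 3 of 9 (Il9, Ccr4 and Ecm1), against 6.75%. The core TGACNNNGC of the antioxidant response element, which NRF2 binds, was in 0 of 9, against 10.2% of all. The STAT6 motif, TTC and GAA with 4 bases of any kind between them, was in 2 of 9 (Il4 and Il9), against 5.85% of all, and in Il4 it overlapped a GGAAA core. All motifs were searched on both strands, and a match describes letters and no binding.

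Il13, which encodes the cytokine of mucus production and airway contraction, gave the smallest p of the 6 cytokine genes at 48 h. It stood at 19.1, 16.7 and 15.5 CPM in the KKO libraries, against 4.02, 3.76 and 3.56 CPM in the WT libraries. The lowest KKO library was thus well clear of the highest WT library. The mean was 4.53-fold higher in KKO, with a log2 fold change of 2.18 ± 0.16 (SE, edgeR adjusted p = 2.26e-06). A day earlier, at 24 h, Il13 stood at 1.61, 2.42 and 2.51 CPM in KKO and at 1.64, 1.32 and 1.18 CPM in WT. There KKO replicate 1 lay just under WT replicate 1, so the groups overlapped, and the gene was not called (0.65 ± 0.20 SE, edgeR adjusted p = 0.124). Without that KKO library it was called (0.85, edgeR adjusted p = 0.0425).

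Il5, whose product makes eosinophils grow and survive, was read from few counts. At 48 h it stood at 2.998, 2.21 and 2.72 CPM in KKO, against 0.218, 0.354 and 0.285 CPM in WT. The groups did not overlap, and the mean was 9.26-fold higher in KKO (log2 fold change 3.17 ± 0.37 SE, edgeR adjusted p = 5.81e-05). For Il5 at 24 h the values were 0.107, 0.287 and 0.213 CPM in KKO, 15 counts in all, against 0, 0.0308 and 0.0357 CPM in WT, 2 counts in all. The ratio of these counts per library total was 8.76, with an exact 95% counting interval of 2.04 to 78.9 that covers counting error only. The difference missed the threshold at 24 h (edgeR adjusted p = 0.0531) and passed it without KKO replicate 1 at 24 h (0.0449) or without KKO replicate 2 at 48 h (0.0485).

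Il4, which encodes the cytokine that sets Th2 fate and the switch of B cells to IgE, was called at neither time. It stood at 2.51, 5.26 and 2.72 CPM in KKO at 48 h, against 2.50, 2.34 and 1.33 CPM in WT. KKO replicate 1 lay only just above WT replicate 1, while KKO replicate 2 lay far above the rest, and the gene was not called (0.76 ± 0.30 SE, edgeR adjusted p = 0.082). Earlier, at 24 h, Il4 stood at 0.823, 0.698 and 0.681 CPM in KKO, against 0.393, 0.277 and 0.357 CPM in WT. These groups did not overlap, but with 56 counts in KKO and 30 in WT the difference did not pass (1.10 ± 0.41 SE, edgeR adjusted p = 0.26).

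Il3, a growth factor of basophils and mast cells at the far end of the cluster, differed early and not late. At 24 h it stood at 16.9, 18.4 and 18.7 CPM in KKO, against 6.998, 7.15 and 7.11 CPM in WT. The mean was 2.54-fold higher in KKO, far beyond the spread of either group (1.34 ± 0.18 SE, edgeR adjusted p = 0.00172). At 48 h it stood at 28.1, 36.8 and 19.4 CPM in KKO and at 28.1, 23.8 and 30.1 CPM in WT. The KKO libraries spanned the WT libraries on both sides, and the gene was not called (0.04 ± 0.17 SE, edgeR adjusted p = 0.9).

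**Figure D2:**
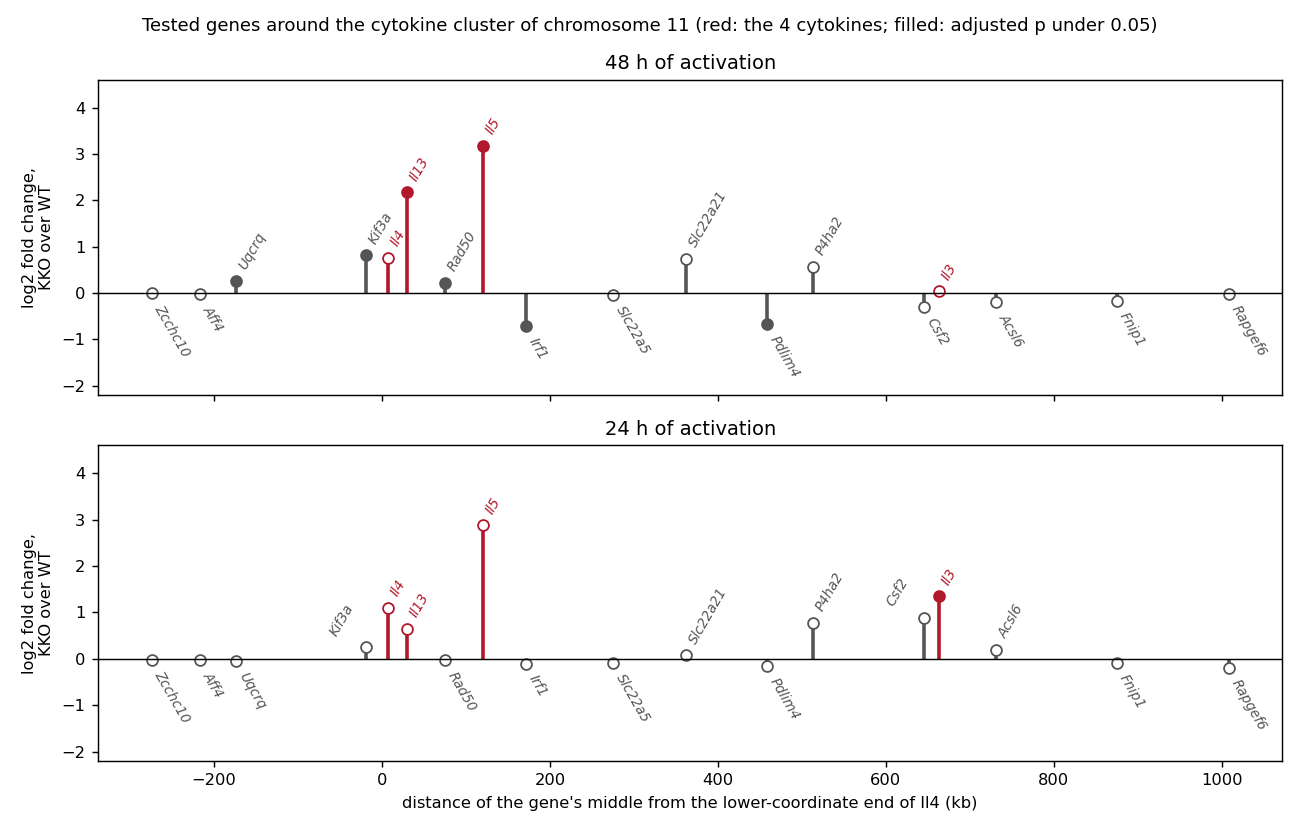
Log2 fold change, KKO over WT, of each tested gene of the chromosome 11 cluster and 300 kb to either side, at 48 h (top) and 24 h (bottom), against distance in kb of the gene's middle from the lower-coordinate end of Il4. Red marks the 4 cytokine genes and filled points passed the test: Il5 and Il13 at 48 h stand far above the other genes, and Il3 is the only filled point at 24 h.

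The cytokine genes were set against the other genes around them, 300 kb to either side. Of 14 other tested genes there, 3 were higher and 2 lower at 48 h, where 12.4% of all tested genes were higher and 11.9% lower. The 14 had log2 fold changes of -0.72 to 0.81 at 48 h. At 24 h 0 of them were called, and they ran from -0.20 to 0.89. On a list of 12 tested neighbours, 11 of them among these 14, the 5 calls at 48 h became 3 (2 higher and 1 lower) without KKO replicate 1, KKO replicate 3 or WT replicate 2 of that time or without the 2 mixed libraries, and 2 (1 higher and 1 lower) in a fit of the 6 libraries of 48 h alone. Kif3a, a kinesin motor gene next to Il4, averaged 29.7 ± 2.13 CPM in KKO and 17.0 ± 1.03 CPM in WT at 48 h (SD, n = 3 each; 0.81 ± 0.08 SE, edgeR adjusted p = 2.53e-05). Irf1, an interferon-induced transcription factor gene on the far side of Il5, averaged 119 ± 19.8 CPM in KKO and 196 ± 14.3 CPM in WT (-0.72 ± 0.09 SE, edgeR adjusted p = 0.000163). Rad50, the DNA repair gene between Il13 and Il5 whose locus holds the control region of the cluster, averaged 133 CPM in KKO and 114 CPM in WT at 48 h (0.23 ± 0.06 SE, edgeR adjusted p = 0.0121). Csf2, the GM-CSF gene beside Il3, was not called at 48 h (-0.29 ± 0.48 SE, edgeR adjusted p = 0.696) or at 24 h (0.89 ± 0.58 SE, edgeR adjusted p = 0.712).

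Il24 lies on chromosome 1, at 130882074 to 130887454 on the minus strand, and encodes a cytokine of the interleukin 10 family that acts mainly on epithelium. It stood at 99.1, 60.9 and 90.6 CPM in KKO at 48 h, against 11.5, 9.06 and 12.7 CPM in WT. KKO replicate 2 was the lowest of its group and still far above every WT library. The mean was 7.53-fold higher in KKO (2.92 ± 0.21 SE, edgeR adjusted p = 8.82e-06). The 24 h values of Il24 were 0.751, 0.657 and 1.45 CPM in KKO, 71 counts in all, against 0.0714, 0.0924 and 0.179 CPM in WT, 10 counts in all. The ratio of these counts was 8.29 (exact 95% counting interval 4.25 to 18.0), and the log2 fold change was 2.997 ± 0.62 (SE, edgeR adjusted p = 0.0275). That call at 24 h was lost without KKO replicate 3 (0.0868) and without WT replicate 1, 2 or 3 of that time (0.0804, 0.12 and 0.0643), with log2 fold changes of 2.59 to 3.42.

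Il9, the gene of a cytokine that feeds mast cells, lies on chromosome 13 at 56479277 to 56482246 on the minus strand. It was highest in KKO at 24 h, at 1.82, 1.27 and 1.96 CPM, against 0.464, 0.308 and 0.179 CPM in WT at that time. The groups were apart, and the mean was 5.32-fold higher in KKO (2.39 ± 0.40 SE, edgeR adjusted p = 0.00462). At 48 h it stood at 0.934, 1.02 and 0.525 CPM in KKO and at 0.816, 0.309 and 0.427 CPM in WT. These values overlapped, and the gene was not called (0.69 ± 0.44 SE, edgeR adjusted p = 0.265).

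Gata3, the gene of the factor that sets the Th2 program, lies on chromosome 2 at 9857078 to 9890034 on the minus strand. It stood at 138, 171 and 150.2 CPM in KKO at 48 h, against 118, 103 and 92.2 CPM in WT. The mean was 1.47-fold higher in KKO with no overlap (0.55 ± 0.10 SE, edgeR adjusted p = 0.00153). Its 24 h values were 33.1, 27.8 and 33.2 CPM in KKO, against 17.4, 15.9 and 16.7 CPM in WT. There the mean was 1.88-fold higher in KKO (0.91 ± 0.11 SE, edgeR adjusted p = 0.000369).

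Ccr4, the gene of the receptor for the chemokines CCL17 and CCL22, lies on chromosome 9 at 114490316 to 114504916 on the minus strand. It stood at 159, 149.6 and 168 CPM in KKO at 48 h, against 83.7, 75.4 and 77.9 CPM in WT. At 24 h it stood at 75.7, 69.7 and 75.1 CPM in KKO, against 40.9, 32.9 and 41.5 CPM in WT. Both times showed tight groups with a wide gap between them. The log2 fold change was 1.01 ± 0.08 (SE, edgeR adjusted p = 3.45e-06) at 48 h and 0.94 ± 0.08 (SE, edgeR adjusted p = 1.4e-05) at 24 h, which put Ccr4 at rank 11 and rank 10 of the 13196 tested genes by p.

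Ecm1 encodes extracellular matrix protein 1, which in mice has been tied to the exit of Th2 cells from lymph nodes. It lies on chromosome 3 at 95734147 to 95739569 on the minus strand. It stood at 134, 49.5 and 149 CPM in KKO at 48 h, against 15.2, 15.3 and 19.6 CPM in WT. KKO replicate 2 had about the level of neither group: far under the other KKO libraries and well above all WT libraries. The mean was 6.64-fold higher in KKO (2.73 ± 0.38 SE, edgeR adjusted p = 0.00167). At 24 h the values were 13.3, 12.9 and 13.7 CPM in KKO and 12.2, 11.98 and 7.82 CPM in WT, a gap smaller than the spread in WT (0.32 ± 0.40 SE, edgeR adjusted p = 0.928).

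Il1rl1 encodes ST2, the receptor of interleukin 33, and lies on chromosome 1 at 40429570 to 40465415 on the plus strand. It stood at 0.541, 0.396 and 0.429 CPM in KKO at 48 h, against 0.272, 0.177 and 0.332 CPM in WT. At 24 h it stood at 1.001, 0.657 and 0.723 CPM in KKO, against 0.500, 0.308 and 0.643 CPM in WT. The groups did not overlap at either time, but with 27 counts in KKO and 16 in WT at 48 h the gene was not called (0.81 ± 0.46 SE, edgeR adjusted p = 0.207), nor was it at 24 h (0.73 ± 0.35 SE, edgeR adjusted p = 0.467).

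**Figure D3:**
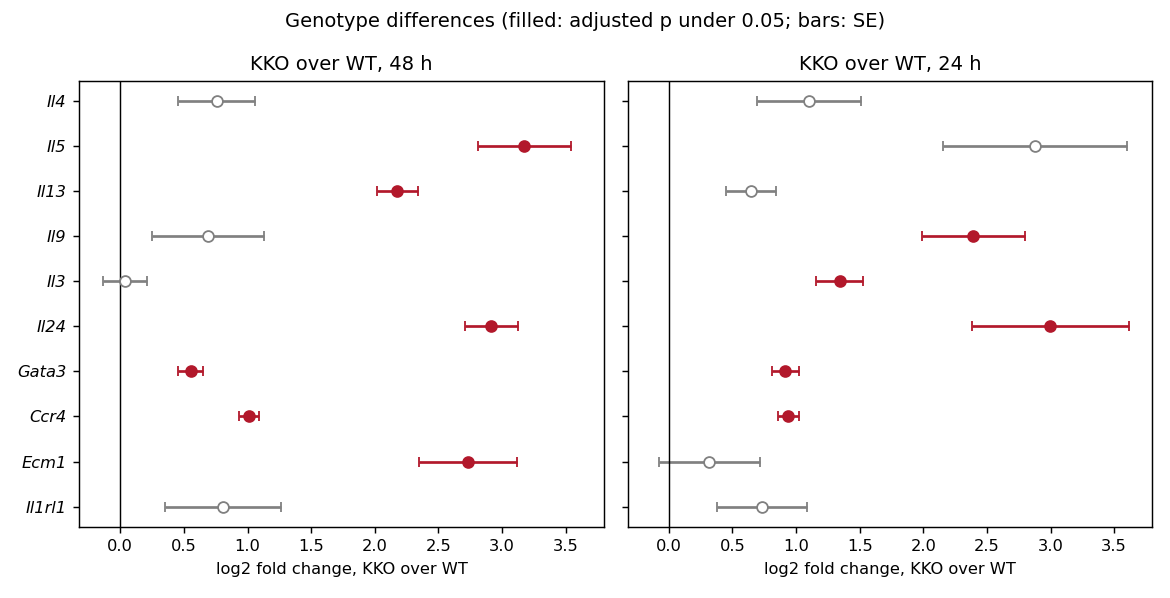
Log2 fold change, KKO over WT, of the 10 genes at 48 h (left) and at 24 h (right), with bars of 1 SE. Filled points passed the test: Il5, Il24, Ecm1, Il13, Ccr4 and Gata3 at 48 h, and Il24, Il9, Il3, Ccr4 and Gata3 at 24 h; all points lie above 0.

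The difference between the genotype effects was tested as an interaction, the log2 fold change of KKO over WT at 48 h minus that at 24 h. It was called for 3 of the 10 genes, 2 with a larger effect at 48 h and 1 with a smaller one, and 4.18% of all tested genes were called in this comparison, 1.46% larger and 2.72% smaller. Il13 had an interaction of 1.53 ± 0.26 (SE, edgeR adjusted p = 0.0061) and stayed called on leaving out any 1 of the 12 libraries. Il3 went the other way, at -1.31 ± 0.25 (SE, edgeR adjusted p = 0.0159). Its call was lost without WT replicate 2 at 24 h (0.0508) or WT replicate 3 at 24 h (0.0535). Ecm1 had 2.42 ± 0.55 (SE, edgeR adjusted p = 0.0458), and this call held in 1 of the 12 fits that left out a library, the one without KKO replicate 2 at 48 h (3.21e-05). In the other 11 its adjusted p was 0.0532 to 0.12, and the call was also lost with the replicate number as a block (0.0658) or with genotype and number as the block (0.0592). Il9 had -1.70 ± 0.61 (SE, edgeR adjusted p = 0.116), and Il24, Il4, Il5, Gata3, Ccr4 and Il1rl1 were not called either. Without KKO replicate 2 at 48 h, Il9 (0.0462) and Gata3 (0.0243) were called too. Without the 2 mixed libraries, 2 were called, Il13 (0.0348) and Il3 (0.0218). In that fit 54 of 13391 tested genes were called in the interaction, against 552 of 13196 in the main fit.

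The change with time was compared within each genotype. In KKO, 8 of the 10 genes were higher and 1 lower at 48 h than at 24 h, and 67.8% of all tested genes were called, 34.4% higher and 33.4% lower. In WT, 7 were higher and 0 lower, and 60.8% of all tested genes were called, 31.0% higher and 29.7% lower. Without the 2 mixed libraries 8 were higher and 0 lower in KKO, Il9 being the call lost (edgeR adjusted p = 0.201), and 7 were higher in WT. In that fit 7928 of 13391 tested genes were called in KKO and 7862 in WT. Il24 had the largest fold change of the 10 in both genotypes: 87.8-fold higher at 48 h in KKO (6.47 ± 0.27 SE, edgeR adjusted p = 3.99e-09) and, from 685 counts at 48 h and 10 at 24 h, a ratio of counts of 97.6 in WT (exact 95% counting interval 52.8 to 204.5). Its genotype effect did not differ between the times beyond the error (interaction -0.08 ± 0.46 SE, edgeR adjusted p = 0.936). Gata3 rose 4.88-fold in KKO (2.29 ± 0.10 SE) and 6.27-fold in WT (2.65 ± 0.11 SE), and Ccr4 rose 2.16-fold in KKO and 2.06-fold in WT. Il4 was 4.76-fold higher at 48 h in KKO and 6.01-fold higher in WT. Il5 was 13.0-fold higher in KKO, and in WT, from 18 counts at 48 h and 2 at 24 h, its ratio of counts was 12.8 (exact 95% counting interval 3.07 to 114). Il13 was 7.84-fold higher at 48 h in KKO, against 2.74-fold in WT, and Il3 was 1.56-fold higher in KKO, against 3.86-fold in WT. Ecm1 was 8.33-fold higher at 48 h in KKO (3.06 ± 0.39 SE, edgeR adjusted p = 8.38e-05), while in WT it was not called (0.64 ± 0.40 SE, edgeR adjusted p = 0.193). In WT Ecm1 was called without KKO replicate 2 at 48 h (0.00385), a library that enters that test only through the shared estimate of the spread. Il9 fell in KKO (-1.04 ± 0.38 SE, edgeR adjusted p = 0.0237), a call lost without KKO replicate 3 at 48 h (0.111), KKO replicate 1 at 24 h (0.0636) or KKO replicate 3 at 24 h (0.0779). In WT, Il9 was not called (0.67 ± 0.47 SE, edgeR adjusted p = 0.238). Il1rl1 was lower at 48 h in both genotypes without passing (-0.80 in KKO, edgeR adjusted p = 0.0727, and -0.88 in WT, 0.0912), and in WT it passed without replicate 2 at 24 h (0.0394).

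**Figure D4:**
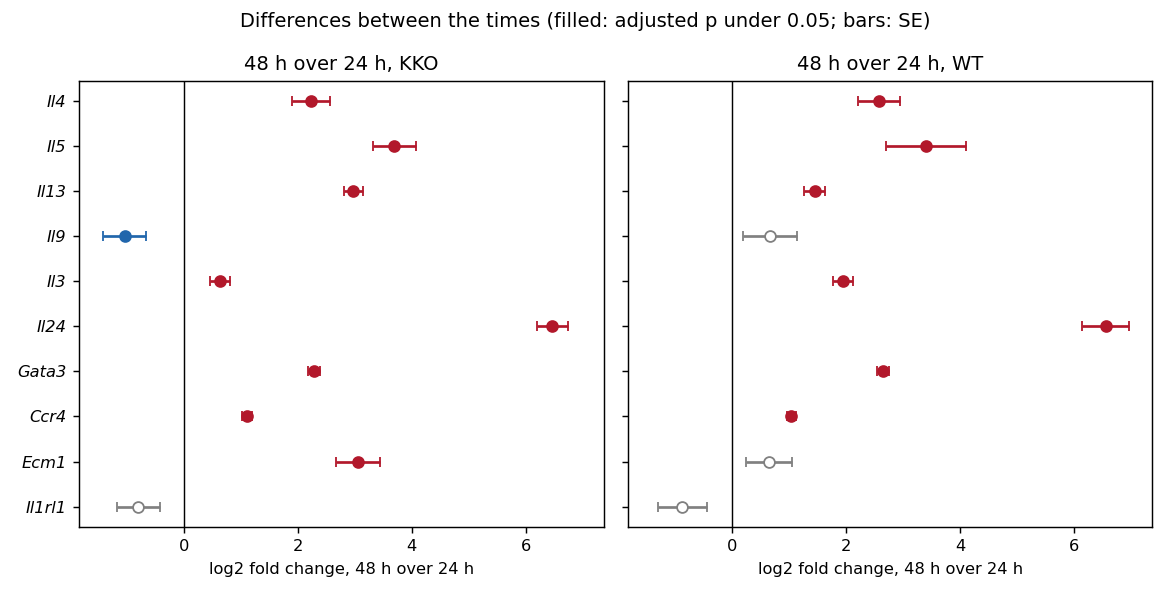
Log2 fold change, 48 h over 24 h, of the 10 genes in KKO (left) and WT (right), with bars of 1 SE; filled points passed the test. Il24 lies farthest to the right in both panels, at 6.47 in KKO and 6.55 in WT, and Il9 is the only filled point below 0, in KKO.

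To compare levels between genes, CPM was divided by the length of each gene's exons in kb. On that scale the 6 cytokine genes summed to 125 ± 11.95 CPM per kb in KKO and 57.4 ± 6.34 in WT at 48 h, and to 35.0 ± 2.20 in KKO and 13.4 ± 0.339 in WT at 24 h (SD, n = 3 each). Every KKO library was above every WT library of its time. Il24 made up 48.3% of the sum in KKO at 48 h on average, against 13.9% in WT, and Il3 made up 35.5% in KKO, against 75.6% in WT. At 24 h Il3 was 81.8% of the sum in KKO and 84.2% in WT. Il13 was 11.3% in KKO and 5.51% in WT at 48 h, and Il4, Il5 and Il9 were each under 3% of the sum in both.

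**Figure D5:**
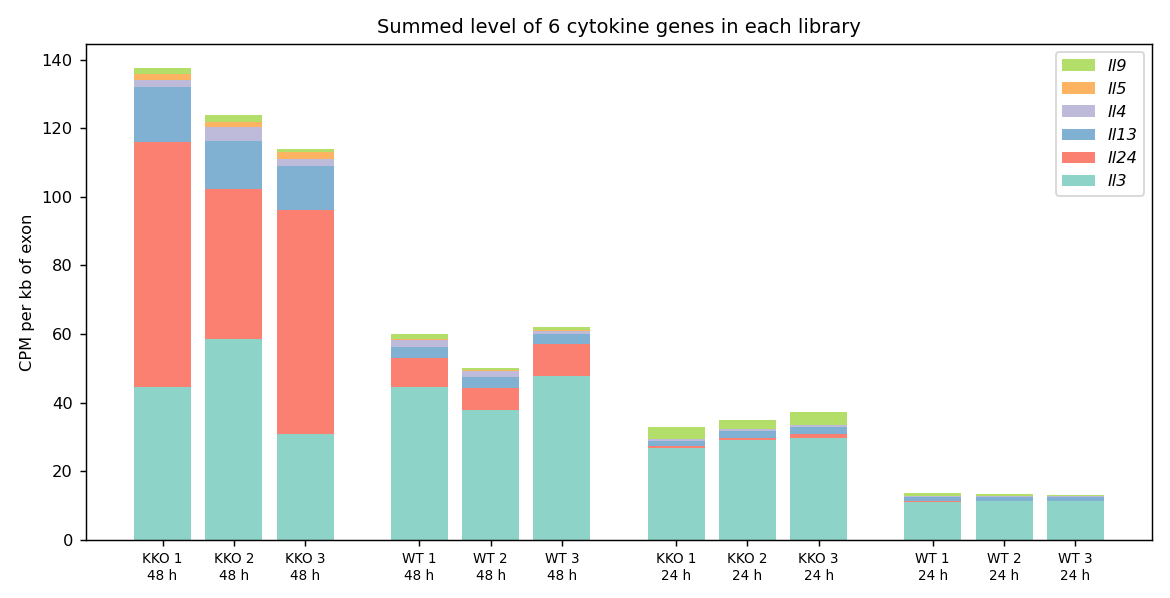
Stacked CPM per kb of exon of the 6 cytokine genes in each library, KKO before WT at 48 h and then at 24 h. The KKO libraries at 48 h reach 114 to 138, against 50.2 to 62.0 in WT at 48 h, and Il24 makes up 35.5 to 57.4% of the KKO bars at 48 h, against 13.0 to 14.8% of the WT bars.

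The order of the 10 genes per kb of exon also differed between groups. In KKO at 48 h the order was Il24 (60.3 CPM per kb), Ccr4 (51.4), Il3 (44.6), Ecm1 (44.0) and Gata3 (38.5), and the libraries of each of these overlapped with those of the next. Below them stood Il13 (14.2), Il4 (2.85), Il5 (1.72), Il9 (1.54) and Il1rl1 (0.0660). Of these steps, only that between Il5 and Il9 overlapped. In WT at 48 h Il3 led at 43.4 CPM per kb, clear of Gata3 (26.2) and Ccr4 (25.6), which overlapped, and Il24 followed at 8.01, overlapping with Ecm1 at 6.62. The rest of that order was Il13 (3.14), Il4 (1.68), Il9 (0.965), Il5 (0.186) and Il1rl1 (0.0377), where only Il4 and Il9 overlapped. In KKO at 24 h Il3 led at 28.6 CPM per kb, and Il9 (3.14) stood above Il13 (1.81), Il24 (0.687), Il4 (0.598), Il5 (0.132) and Il1rl1 (0.115), with Il24 overlapping Il4 and Il5 overlapping Il1rl1. In WT at 24 h Ccr4 (12.4) and Il3 (11.3) overlapped at the top, and Il5 was last at 0.0144.

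Across the 12 libraries the genes fell into those that moved together and those that did not. As a description, on log2 CPM, Pearson's r was 0.98 between Gata3 and Il4, 0.98 between Gata3 and Il24, and 0.97 between Il5 and Il13. The r of Il9 with the other genes was 0.15 to 0.56, and that of Il1rl1 was -0.43 to 0.56. The libraries share 2 times and 2 genotypes, so these values mostly describe the group means. The tested genes most like the mean of the 10 were Nek6 (r = 0.996), Sox5 (0.982), Slc13a3 (0.981), Trim16 (0.979) and Abcc1 (0.979), over the same 12 libraries. Nek6 averaged 34.2 CPM in KKO and 17.6 CPM in WT at 48 h, and 15.6 CPM in KKO and 7.35 CPM in WT at 24 h. Most like Il24 were Rbpj (0.995) and Dennd3 (0.994), most like Gata3 were Ptpn5 and Rnf19b (0.995 and 0.994), and most like Il13 were Lmna (0.982) and Cpeb2 (0.975).

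Of 19 tested genes of transcription factors that act with Gata3, 12 were higher and 1 lower in KKO at 48 h (median log2 fold change 0.31), where 12.4% of all tested genes were higher and 11.9% lower. At 24 h 6 were higher and 1 lower (median 0.32), against 1.89% and 0.432% of all. The lower gene was Nfatc1 at 48 h and Irf4 at 24 h, while Irf4 was among the higher genes at 48 h. At 48 h 6 were higher without KKO replicate 1, without WT replicate 2 or without the 2 mixed libraries, and 7 without KKO replicate 3 or WT replicate 1. Calls among all tested genes also fell in these fits, from 3209 of 13196 to 1405 of 13448 without KKO replicate 1. They were 1697 of 13530 without WT replicate 2 and 1386 of 13391 without the 2 mixed libraries. They were 1659 of 13446 without KKO replicate 3 and 1719 of 13526 without WT replicate 1. At 24 h 3 were higher without KKO replicate 3, WT replicate 2, WT replicate 3 or the 2 mixed libraries, and 4 without KKO replicate 1. Calls among all tested genes at 24 h fell there from 307 of 13196 to 132 of 13432 without KKO replicate 3. They were 138 of 13445 without WT replicate 2, 152 of 13452 without WT replicate 3 and 176 of 13456 without KKO replicate 1. Maf, which drives Il4 transcription in Th2 cells, averaged 5.999 ± 3.51 CPM in KKO and 0.865 ± 0.354 CPM in WT at 48 h (SD, n = 3 each; 2.81 ± 0.48 SE, edgeR adjusted p = 0.00179). Nfil3, a basic leucine zipper factor, averaged 179 ± 23.3 CPM in KKO and 86.3 ± 7.16 CPM in WT at 48 h (1.05 ± 0.14 SE, edgeR adjusted p = 0.000404), and 12.9 CPM in KKO and 5.50 CPM in WT at 24 h (1.23 ± 0.18 SE, edgeR adjusted p = 0.00462). Batf, an AP-1 factor of T-cell activation, had a log2 fold change of 0.99 ± 0.10 (SE, edgeR adjusted p = 3.31e-05) at 48 h. Rbpj, the DNA-binding partner of Notch, had 0.86 ± 0.08 at 48 h and 0.52 ± 0.08 at 24 h (SE, edgeR adjusted p = 1.17e-05 and 0.00219). Bhlhe40 had 0.47 ± 0.08 (SE, edgeR adjusted p = 0.00688) at 24 h. Satb1, a chromatin organizer that folds the cytokine cluster, had 0.60 ± 0.14 (SE, edgeR adjusted p = 0.043) at 24 h, a call kept in 3 of the 12 fits without a library, with adjusted p up to 0.159.

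Genes that oppose the Th2 program were called in both directions at 48 h. Of 17 tested, 2 were higher and 6 lower at 48 h, where 12.4% of all tested genes were higher and 11.9% lower. At 24 h 1 was higher, against 1.89% of all. Without the 2 mixed libraries 2 were higher and 4 lower at 48 h and 1 was higher at 24 h. At 24 h 2 were higher once KKO replicate 2 of that time was left out. Eomes, a T-box factor of cytotoxic and Th1 cells, averaged 14.3 ± 3.75 CPM in KKO and 44.5 ± 9.73 CPM in WT at 48 h (-1.64 ± 0.24 SE, edgeR adjusted p = 0.00131). Stat4, which relays interleukin 12, had -0.71 ± 0.10 (SE, edgeR adjusted p = 0.000209), and Bcl6, a repressor that antagonizes GATA3, had -0.76 ± 0.17 (SE, edgeR adjusted p = 0.00561). Socs3, a cytokine signalling inhibitor, was higher at 1.50 ± 0.26 (SE, edgeR adjusted p = 0.00427) at 48 h. Socs1, another inhibitor of the family, was the gene called at 24 h (0.57 ± 0.07 SE, edgeR adjusted p = 0.000605).

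A list of cytokine receptor genes went beyond receptors for the cytokines described here. It also held Il7r, Crlf2 and Il1rap, which belong to receptors of other cytokines. Of its 11 tested genes, 4 were higher and 2 lower at 48 h and 2 were higher at 24 h. Among all tested genes, 12.4% were higher and 11.9% lower at 48 h, and 1.89% were higher at 24 h. Without the 2 mixed libraries, 3 of the 11 were called at 48 h and 0 at 24 h. At 48 h 3 were called without KKO replicate 1, and at 24 h 0 were called without KKO replicate 1 or 3 or WT replicate 2 or 3. Il4ra, the receptor chain shared by interleukins 4 and 13, averaged 562 ± 58.5 CPM in KKO and 394 ± 29.8 CPM in WT at 48 h (0.51 ± 0.09 SE, edgeR adjusted p = 0.00131), and 258 CPM in KKO and 191 CPM in WT at 24 h (0.43 ± 0.09 SE, edgeR adjusted p = 0.0183). Il7r, a receptor chain for interleukin 7 and TSLP, had 1.29 ± 0.16 (SE, edgeR adjusted p = 0.000163) at 48 h and 0.80 ± 0.17 (SE, edgeR adjusted p = 0.0295) at 24 h. The 24 h calls of both were kept in 8 of the 12 fits without a library, with adjusted p up to 0.0808 for Il4ra and 0.128 for Il7r. Crlf2, the TSLP receptor chain, was called at 48 h (0.34 ± 0.10 SE, edgeR adjusted p = 0.0185), likewise in 8 of the 12 fits, with adjusted p up to 0.104. Il1rap, the partner chain of ST2, was lower at 48 h, at 8.36 ± 1.59 CPM in KKO and 12.5 ± 0.917 CPM in WT (-0.59 ± 0.14 SE, edgeR adjusted p = 0.00766). This call was kept in 12 of the 12 fits without a library, with adjusted p up to 0.0468, and lost without the 2 mixed libraries (0.0548).

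A further list held Th2 markers and effectors, not all of them particular to Th2 cells. Of its 14 tested genes, 6 were higher and 1 lower at 48 h, and 1 was higher at 24 h. Among all tested genes, 12.4% were higher and 11.9% lower at 48 h, and 1.89% were higher at 24 h. The higher genes at 48 h were Il10, Cyp11a1, Il21, S1pr1, Il2ra and Ccr8. Of these, Il2ra is also counted with the regulatory T cell markers and Il10 with the neighbours of Il24. Without the 2 mixed libraries 5 were called at 48 h and 0 at 24 h. At 48 h 4 were called without WT replicate 2, and leaving out KKO replicate 2 gave 4 calls at 24 h where the 48 h library was dropped and 3 where the 24 h one was. Cyp11a1, the first enzyme of steroid synthesis, which Th2 cells of mice express, averaged 23.1 ± 5.19 CPM in KKO and 3.11 ± 0.525 CPM in WT at 48 h (2.89 ± 0.21 SE, edgeR adjusted p = 1.69e-06). S1pr1, the sphingosine phosphate receptor of lymph node exit, had 1.11 ± 0.24 (SE, edgeR adjusted p = 0.00675). Il21 was called at 2.37 ± 0.60 (SE, edgeR adjusted p = 0.0229), in 8 of the 12 fits without a library and with adjusted p up to 0.0934. Ccr8, a receptor on Th2 cells, was the gene called at 24 h (0.59 ± 0.13 SE, edgeR adjusted p = 0.0312), in 4 of the 12 fits and with adjusted p up to 0.191. Tnfsf11, the lower gene at 48 h, was called at -1.0 ± 0.30 (SE, edgeR adjusted p = 0.0439), in 1 of the 12 fits and with adjusted p up to 0.169. Around Il24, 3 of 7 tested neighbours were higher and 0 lower at 48 h, among them Mapkapk2, a kinase gene (0.75 ± 0.06 SE, edgeR adjusted p = 4.72e-06), and 0 were called at 24 h. Around Il1rl1, 3 of 6 were higher and 2 lower at 48 h, with Il18rap, the accessory chain of the interleukin 18 receptor, at -1.20 ± 0.23 (SE, edgeR adjusted p = 0.00257), and 0 were called at 24 h. At 48 h 3 neighbours of Il24 and 4 of Il1rl1 were called without the 2 mixed libraries.

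Markers of other cells that can make these cytokines were read in the same libraries. The 13 mast cell and basophil markers summed to 4.01 to 6.50 CPM in KKO and 6.36 to 6.69 CPM in WT at 48 h, mostly Hdc, with Mcpt4, Mcpt1, Tpsb2 and Tpsab1 at 0 in all libraries. At 24 h their sums were 4.97 to 6.26 CPM in KKO and 4.68 to 6.14 CPM in WT. The 8 markers of type 2 innate lymphoid cells summed to 10.1 to 17.6 CPM in KKO and 7.72 to 14.0 CPM in WT at 48 h, mostly Rora, which T cells also express, with Nmur1 at 0. At 24 h the sums of this second list were 2.83 to 3.70 CPM in KKO and 2.002 to 2.25 CPM in WT. Both lists overlapped between the genotypes at 48 h. At 24 h the first list overlapped, and every KKO sum of the second was above every WT sum. At 48 h 1 of their 4 tested genes, Hdc, was called, lower in KKO, where 24.3% of all tested genes were called. That call was lost without KKO replicate 1 or 3 or WT replicate 1 or 2 of 48 h, without the 2 mixed libraries and in a fit of the 6 libraries of 48 h alone. The 7 eosinophil markers summed to 1.08 to 1.47 CPM in KKO and 0.354 to 0.474 CPM in WT at 48 h, with Epx, Ear1 and Ear2 at 0, and to 0.468 to 0.780 CPM in KKO and 0.143 to 0.493 CPM in WT at 24 h. Their sums were apart between the genotypes at 48 h and overlapped at 24 h.

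Summed B cell markers were also higher in KKO at both times. Among all tested genes, 12.4% were called higher and 11.9% lower at 48 h, and 1.89% and 0.432% at 24 h. The 9 markers summed to 30.8 to 38.7 CPM in KKO and 13.5 to 17.2 CPM in WT at 48 h, with 6 of 7 tested higher, and to 20.5 to 29.9 CPM in KKO and 10.04 to 13.7 CPM in WT at 24 h, with 3 of 7 higher. Without the 2 mixed libraries 5 were higher at 48 h and 0 at 24 h. The 24 h count was also 0 without KKO replicate 1 or 2 or WT replicate 2 of 24 h, and 5 without KKO replicate 2 of 48 h. Of the 8 markers of natural killer and natural killer T cells, 1 was higher (Gzma) and 1 lower (Klrk1) at 48 h among 5 tested, and the sums were 17.9 to 32.9 CPM in KKO and 8.49 to 16.4 CPM in WT, with 0 called and sums of 10.01 to 14.0 CPM in KKO and 4.18 to 9.93 CPM in WT at 24 h. Of the pair of calls at 48 h, 0 were left without KKO replicate 1, WT replicate 2 or the 2 mixed libraries, and 1 without KKO replicate 3 or WT replicate 1.

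The γδ T cell markers summed to 5.77 to 10.7 CPM in KKO and 3.01 to 4.32 CPM in WT at 48 h, with 2 of 3 higher, and to 5.58 to 8.26 CPM in KKO and 3.89 to 4.10 CPM in WT at 24 h, with 1 of 3 higher. At 48 h 1 was higher without KKO replicate 1, KKO replicate 3, WT replicate 2 or the 2 mixed libraries. The 24 h call was lost without KKO replicate 3 of 48 h, KKO replicate 1 or 3 of 24 h, any WT library of 24 h or the 2 mixed libraries. Both CD8 T cell markers were higher at 48 h, with sums of 12.7 to 13.4 CPM in KKO and 8.32 to 10.6 CPM in WT, and neither was called at 24 h. At 48 h 0 were called without KKO replicate 1, KKO replicate 3, WT replicate 2 or the 2 mixed libraries and in a fit of the 6 libraries of 48 h alone, and both were called in 2 of the 12 fits without a library, those without KKO replicate 2 or 3 of 24 h. Both tested macrophage and dendritic cell markers were higher at 48 h, with sums over 12 markers of 5.995 to 10.2 CPM in KKO and 3.10 to 5.08 CPM in WT and C1qb and Siglech at 0, and neither was called at 24 h. Both were also called at 48 h without the 2 mixed libraries and on leaving out any 1 library. Of 6 regulatory T cell markers, which activated T cells also express, 4 were higher and 1 lower at 48 h, with sums of 1911 to 2478 CPM in KKO and 1330 to 1505 CPM in WT, and 1 was higher at 24 h. At 48 h 2 were higher and 0 lower without KKO replicate 1 or 3 or WT replicate 1 or 2 of that time, without the 2 mixed libraries and in a fit of the 6 libraries of 48 h alone, and 3 were higher without KKO replicate 3 of 24 h. At 24 h 1 was higher without the 2 mixed libraries, 3 without KKO replicate 1 of 48 h, 4 without KKO replicate 2 of 48 h, 2 without KKO replicate 2 of 24 h and 5 in a fit of the 6 libraries of 24 h alone. In the main fit Foxp3 was called at neither time (0.47 ± 0.24 SE, edgeR adjusted p = 0.162 at 48 h, and 0.45 ± 0.19 SE, edgeR adjusted p = 0.346 at 24 h). Il2ra was the largest part of the sums at 48 h, at 1828 CPM in KKO and 1135 CPM in WT on average. Among all tested genes, 12.4% were called higher and 11.9% lower at 48 h, and 1.89% and 0.432% at 24 h. The part of these other cells in the differences of the cytokine genes was not tested.

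Sex-linked transcripts also differed between libraries of a group, and the genes were read within each kind. At 48 h all 10 genes were higher in the KKO library with Xist only than in the mean of the 2 such WT libraries, and 9 of 10 were higher in the KKO library with Y-linked transcripts only than in the 1 such WT library, Il3 being the exception. At 24 h it was 10 of 10 in each kind. KKO replicate 2, the KKO library with Xist only at 48 h, was the lowest of its group for Il5, Il24, Ecm1, Ccr4 and Il1rl1 and the highest for Il4, Il9, Il3 and Gata3. Its Ecm1 was 3.25-fold that of the WT libraries of its kind, against 6.86-fold in the libraries with Y-linked transcripts only. With 1 or 2 libraries of a kind in a group, these within-kind values have no test. The libraries are those of the main tests, and the share of all tested genes higher in KKO within a kind was not counted.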

How the data were processed

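RNA of 12 libraries of mouse CD4+ T cells was compared. FastQC, RSEM and build mm10 are named per the submitters' processing notes. A human reference is named in the design text, while symbols and organism label are of mouse. The deposited file holds expected counts per gene made by the authors, not normalized, of which 22.2 to 25.4% of the values above 0 were not whole. RSEM's version, the aligner and the annotation are not given in the sources used here. A further 6 columns were not used, since no label describes them; 27 symbols had become dates, and the 1 row without a gene, with at most 2 counts in a library, was left out.

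After rounding, the tests were those of edgeR 4.0.16 under R 4.3.3: filterByExpr on the 4 groups (13196 genes left), TMM scaling and robust quasi-likelihood F tests (2-sided) on all 12 libraries, each group having its own mean, which leaves 8 degrees of freedom. The threshold was an adjusted p of 0.05 (Benjamini-Hochberg, every tested gene). The SE of a log2 fold change was its size over the square root of F. The fit was tested on simulated data. CPM used TMM-scaled totals, and exon lengths came from GENCODE M21.

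The 10 genes and the gene lists were chosen with earlier results of these data known. Beside them the text names Keap1, up to 4 called genes of each list per genotype comparison with the largest change and a mean level of 2 CPM or more (or the smallest p where none was called), the genes around Il4 to Il3, called markers, and the genes of highest Pearson r to each of the 10 genes (2 each) or to their mean (5); not all that the rule names are described, and Rad50, Irf1 and Csf2 were also chosen for their place. Libraries with the same number, as deviations from their group means, correlated at 0.126, 0.103 and 0.343 between 48 h and 24 h in WT. Number 2 at 48 h with number 1 at 24 h gave 0.151, above 0.126 and 0.103. WT number 3, at 0.343, held Y-linked transcripts only at both times. WT numbers may pair across time, but these values do not settle it, and the main tests use no pairing. What a number marks is not in the labels. The alternatives tried were DESeq2 1.42.0, limma-voom (limma 3.58.1), scaling by RLE or upper quartile, a filter of at least 1 CPM in 6 libraries, no filter, fits of the 6 compared libraries alone, replicate blocks, adjusted p under 0.01, a 2-fold minimum, a male-share covariate, leaving out the 2 libraries with both Xist and Y-linked transcripts, and leaving out each library. Intervals on counts cover counting error only.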

Additional observations from a re-analysis of the deposited data

Results flagged for a closer look

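Of the 10 genes, 3 had genotype effects that differed between the times by the test of that difference (edgeR's quasi-likelihood test of the interaction). Il13 stood further above WT at 48 h than at 24 h, by 1.53 on the log2 scale (adjusted p = 0.0061). Ecm1 did likewise, by 2.42 (adjusted p = 0.0458), with KKO replicate 2 at 48 h far below the other KKO libraries of its time. The Ecm1 call was lost in 11 of the 12 fits that left out a library (adjusted p = 0.0532 to 0.12) and with the replicate number as a block (0.0658, or 0.0592 with genotype and number). Il3 stood above WT at 24 h and level with it at 48 h, a difference of -1.31 (adjusted p = 0.0159).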

How the results depend on the processing

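The count of the 10 genes called stayed within 1.5 times at 48 h (6 to 6 on leaving out each library), in KKO over time (8 to 9) and in WT over time (7 to 8) under every alternative run. At 24 h the count was 3 with a 2-fold minimum, against 5, and 4 to 7 on leaving out each library. For the interaction it was 1 at an adjusted p under 0.01, against 3, and 1 to 5 on leaving out each library. Differences near 0 changed sign. Il3 at 48 h was -0.0159 with limma-voom and -0.217 to 0.246 on leaving out each library, lowest without KKO replicate 2 at 48 h and also below 0 without WT replicate 2 at 48 h (-0.0576). On leaving out each library, the interaction of Il24 ran from -0.515 to 0.324 (0.0293 with limma-voom), that of Il1rl1 from -0.180 to 0.327 and that of Il5 from -0.0617 to 0.748 (-0.0448 without the 2 libraries with Xist and Y-linked transcripts together). Nfe2l2, the gene of NRF2, kept an adjusted p above the threshold throughout. It ran from -0.0183 to 0.0622 at 48 h and from -0.0148 to 0.0099 at 24 h on leaving out each library, with -0.0183 at 48 h without those 2 libraries and 0.0032 at 24 h with the stricter filter. Single calls also turned on a setting: Il24 at 24 h was lost with limma-voom (adjusted p = 0.33), and Il4 at 48 h was called with the male-share covariate (0.96, edgeR adjusted p = 0.0144). The causes were not tested.

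With the replicate number as a block, 6 of the 10 genes were called at 48 h, 5 at 24 h and 2 in the interaction. With genotype and number as the block, 9 were called in KKO over time, 7 in WT over time and 2 in the interaction. The interaction of Ecm1 was the call lost under the replicate block (adjusted p = 0.0658 by number and 0.0592 by genotype and number). Between genotypes, same-numbered libraries correlated at -0.249, 0.106 and 0.135 at 48 h and at -0.317, -0.003 and 0.224 at 24 h. Across time in KKO they correlated at 0.0287, 0.0852 and 0.0408. These values do not settle whether a shared number marks a shared source. In KKO the library with Y-linked transcripts only was number 1 at 48 h and number 3 at 24 h, and the mixed one number 3 at 48 h and number 1 at 24 h. The correlation was 0.170 between number 1 at 48 h and number 3 at 24 h, and -0.122 between number 3 at 48 h and number 1 at 24 h, so the block of KKO over time rests on numbers that may not mark the same source. Few counts stood behind some groups: 2 to 18 for Il5 in every group but KKO at 48 h, 16 to 61 for Il1rl1, 30 and 56 for Il4 at 24 h, 10 and 71 for Il24 at 24 h, and 28 to 48 for Il9 in every group but KKO at 24 h. The SE of the log2 fold changes between genotypes that rest on these was 0.35 to 0.72, against 0.08 for Ccr4 at each time.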
